A study of Arabidopsis thaliana with 24 samples.

Results

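The mitochondria-encoded genes of Arabidopsis thaliana were taken as every gene in the count tables whose identifier starts with ATMG. That gave 146 of 33602 genes. By the names in the files and the reference they were 14 entries for subunits of respiratory complex I, 1 of complex III, 3 of complex IV, 6 of complex V (the ATP synthase), 5 cytochrome c maturation proteins, 7 ribosomal proteins, 3 rRNAs, the maturase MATR, the translocase gene ORFX, 21 tRNAs and 84 open reading frames. The choice used gene identifiers only and no measured value.

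RNA-seq had been made from lsm4 mutants (allele lsm4-1), Columbia wild type (WT Col), lsm5 mutants (also called sad1) and C24 wild type (WT C24), with 3 replicates each. The lsm4 and WT Col plants grew on agarose medium and were collected at 15 days, and the lsm5 and WT C24 plants grew on soil and were collected at 30 days, before bolting; all had continuous light at 22 °C. LSM4 and LSM5 are subunits of the Sm-like protein rings that act in mRNA decay in the cytoplasm and in splicing in the nucleus. The tissue is given as whole plants and the source as pooled tissues. Separate growths of the replicates are not stated by any label, and p-values here measure only the spread between these samples. The series' design text gives 1 growth time for all plants, which differs from the sample protocols used here.

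The libraries had been selected for polyA tails, which bears on every value here. In plants, most mature mitochondrial mRNAs carry no stable polyA tail, and tails added in the organelle mark RNA for decay. A polyA-selected library therefore holds a small and selected sample of mitochondrial RNA. Several mitochondrial genes are interrupted by group II introns, large structured introns that leave the transcript without the spliceosome. A copy of much of the mitochondrial genome also lies in nuclear chromosome 2.

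Gene counts per library ran between 9402839 (WT Col replicate 1) and 52218346 (WT Col replicate 2). LSM4 itself read 409, 280 and 406 CPM (a gene's count scaled to the total gene counts of its library) in lsm4 plants, against 45.7, 46.4 and 68.3 CPM in WT Col, so its transcript was higher in the mutant. LSM5 read 9.70, 10.3 and 20.01 CPM in lsm5 plants, against 20.6, 10.8 and 15.6 CPM in WT C24, and did not pass the test (log2 fold change -0.32 ± 0.27 SE, adjusted p = 0.59, edgeR quasi-likelihood test). The 4 root marker genes summed to between 58.2 and 86.8 CPM in lsm4 and between 128 and 184 CPM in WT Col, but to at most 1.06 CPM in lsm5 and WT C24 libraries, which goes against the label of whole plants for the soil-grown groups. The 3 leaf marker genes summed to between 24667 and 57435 CPM in all libraries. The 3 flower marker genes summed to between 1.72 and 3.65 CPM in lsm4 against between 0.0764 and 0.421 CPM in WT Col, and to between 3.43 and 4.56 CPM in lsm5 against between 0.118 and 1.06 CPM in WT C24. In lsm4 the sum was nearly all SEP3 (1.67, 3.65 and 1.99 CPM), with AP1 at 0 in each library. In lsm5, AP1 read 1.90, 2.41 and 2.47 CPM and SEP3 1.17, 0.861 and 1.73 CPM. The part of tissue make-up in the results that follow was not tested.

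The introns differ from nuclear introns at their ends, so these are shown first, from the RefSeq Columbia mitochondrial sequence (MT) of the TAIR10.1 assembly. Capitals mark bases 1 to 5 and the last 2 bases. Shown are the introns of rps3 (MT:20239-21821, plus strand), cox2 (MT:6964-8306, plus strand) and ccmFC (MT:190262-191220, plus strand) and the nad7 intron called lower in WT C24 (ATMG00510:I002, MT:243092-244154, minus strand).
rps3 intron, first bases: GGGCGaccgcga
rps3 intron, last bases: tattgactctAT
cox2 intron, first bases: GTGCGcccggaa
cox2 intron, last bases: gctgacccctAT
ccmFC intron, first bases: GTGCGacccggc
ccmFC intron, last bases: gcttaggtcaAC
nad7 intron, first bases: GGGCGatcgcgg
nad7 intron, last bases: tttcgaccctAT
GCG stood at bases 3 to 5 in 16 of the 16 introns that matched the reference, of 18 in the files. The start GTGCG was present in 8 of them, and 14 ended in AC or AT. None of the 16 ended in AG, whereas 99.7% of 120457 nuclear introns did and 98.9% of those started with GT.

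Mitochondrial genes took between 0.00882% and 0.0909% of the gene counts of a library. In all, 163268 counts fell on them over the 12 libraries, and 88.1% of those on the 3 rRNA genes. RRN26 (ATMG00020), the large ribosomal subunit rRNA, averaged 92.6 CPM per kb over all libraries, and RRN18 (ATMG01390), the small subunit rRNA, 62.5 CPM per kb. ORF107A (ATMG00030), an open reading frame with no known role, averaged 69.1 CPM per kb. In the reference it overlaps rrn26 by 185 bases on the opposite strand, and with libraries that keep no strand information the reads of the overlap cannot be told apart. RRN26 spans 2568 bases in the files and 3169 in the reference, so the features as counted may overlap less or not at all. These 3 genes held 93.4% of all mitochondrial counts.

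The other genes were far lower. Next per length among the reading frames were ORF118 (ATMG01010) at 5.10 and ORF114 (ATMG01000) at 5.002 CPM per kb, and the highest tRNA gene was TRNS.2 (ATMG00330) at 4.47 CPM per kb. Among genes for proteins of known function, ATP1 (ATMG01190), the alpha subunit of the ATP synthase, was highest at 1.80 CPM per kb, apart from NAD5B (ATMG00665), a 22-base exon of nad5 with 16 counts in all. At least 1 count in any library was found for 133 members, and 13 stood at 0 in every library. Only 34 members had 100 counts or more over all libraries. At least 1 count was found for 117 members in lsm4 and 113 in WT Col, and for 69 in lsm5 and 95 in WT C24. Many members are thus limited by depth. More genes had exactly 2 counts than exactly 1 in each of the 12 libraries, as when both mates of a fragment are counted, so the number of independent fragments is smaller still.

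A further limit is the nuclear copy. Of the 146 members, 124 matched a named feature of the reference. A chromosome 2 copy of at least 98% identity over at least 90% of the length was found for 90 of them, and 64 of these were identical over their whole length. Reads of the identical ones cannot be assigned to an organelle or a nuclear origin. For the rest of the 90, only reads over a differing base could be. The copies were sought in the Columbia reference only, and whether WT C24 and lsm5 plants carry them was not examined. The 34 members without such a copy include RRN26, RRN18, RRN5, COX1, COX2, RPL16, the rps3 gene (ATMG00090) and ORF107A.

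The first question was how much mitochondrial RNA each mutant showed against its own wild type. In lsm5 plants, 0.0105%, 0.0253% and 0.00882% of gene counts were mitochondrial, against 0.0498%, 0.0249% and 0.0385% in WT C24. The mean log2 difference was -1.45, or 2.73-fold lower, but lsm5 replicate 2 lay above WT C24 replicate 2 and the groups overlapped (exact permutation test, two-sided, p = 0.2). With the rRNA genes left out, the shares were lower in all 3 lsm5 libraries than in any WT C24 library, with means of 0.00162% ± 0.000562 in lsm5 and 0.00456% ± 0.00125 in WT C24 (SD, n = 3 each, log2 difference -1.51). Its exact permutation p was 0.1, the smallest that 3 against 3 libraries allow. The same direction held among the non-rRNA members with a chromosome 2 copy (log2 difference -1.58, exact permutation p = 0.1) and among those without one (-1.48, exact permutation p = 0.1). ORF107A weighs heavily on the shares without rRNA genes, above all among members with no copy. It averaged 22.4 CPM over all libraries, where the members with no copy summed to between 6.20 and 62.0 CPM per library. ORF107A itself had a log2 fold change of -1.42 ± 0.48 SE in lsm5 (adjusted p = 0.17, edgeR quasi-likelihood test). After Benjamini-Hochberg adjustment over the 27 share tests no p was below 0.54.

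In lsm4 plants the mitochondrial share was 0.0909%, 0.0343% and 0.0486%, against 0.0221%, 0.0904% and 0.0470% in WT Col. The groups overlapped over nearly their whole range (log2 difference 0.23, exact permutation p = 0.7). The direction rested on single libraries: the log2 difference was -0.16 without lsm4 replicate 1 and -0.29 without WT Col replicate 1. Between the wild types, which differ in accession, medium and age so that these cannot be told apart, WT C24 lay below WT Col with overlap (log2 difference -0.33, exact permutation p = 0.7), and above it without WT Col replicate 2 (0.17).

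**Figure D1:**
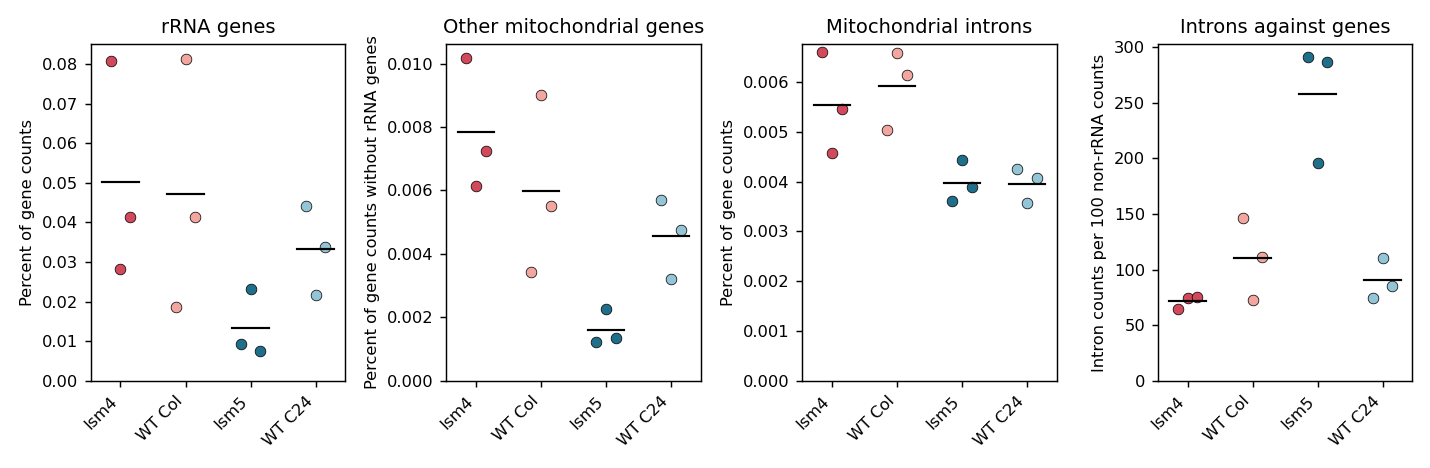
Mitochondrial counts in each library of lsm4, WT Col, lsm5 and WT C24, as percent of gene counts for the rRNA genes and the introns, as percent of gene counts without rRNA genes for the other genes, and as intron counts per 100 non-rRNA gene counts. Points are libraries and lines are means. The non-rRNA genes lie lower in the 3 lsm5 libraries than in the 3 WT C24 libraries, the introns overlap between these groups, and the ratio of introns to genes lies between 196 and 292 in lsm5 and between 74.8 and 111 in WT C24.

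Intron reads, summed over all introns, did not follow the gene reads in lsm5. The sum leans on the rps3 and rpl2 introns, with 1023 and 873 counts in the lsm5 group. Their log2 fold changes against WT C24 were 0.38 and 0.40, by edgeR. Of 15 introns tested singly, 12 lay lower in lsm5 and 3 higher, none of them called. The 18 mitochondrial introns, counted apart from their genes, came to 0.00361%, 0.00442% and 0.00389% of the number of gene counts in lsm5, against 0.00425%, 0.00356% and 0.00407% in WT C24 (log2 difference 0.0034, exact permutation p = 1). Per 100 counts on mitochondrial genes other than rRNA, lsm5 libraries held 292, 196 and 287 intron counts, against 74.8, 111 and 85.4 in WT C24. The lowest lsm5 library was above the highest WT C24 library, and the ratio was 2.85-fold higher on average (exact permutation p = 0.1, the smallest possible). Leaving out each library in turn kept the log2 difference between 1.38 and 1.70. In lsm4 the ratio was 65.0, 74.4 and 75.2, against 146, 73.0 and 111 in WT Col, with overlap (exact permutation p = 0.3). This ratio was set up after the gene and intron values had been seen. ORF107A, with 8869 counts over all libraries, is among the non-rRNA counts that the ratio divides by.

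The intron share was also the steadiest mitochondrial value over the series: its highest library was 1.86-fold its lowest, against 10.9-fold for the rRNA genes and 8.22-fold for the other genes. Its values were lower in the 3 WT C24 libraries than in the 3 WT Col libraries (log2 difference -0.57, exact permutation p = 0.1).

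Each intron held more counts per base than its gene. The rps3 intron (ATMG00090:I001) had 4080 counts over all libraries, against 531 on the exons of its gene, and a density per base of 812% of the gene's. The cox2 intron (ATMG00160:I001), in a subunit gene of cytochrome c oxidase, had 1718 counts against 94 (density 1065%), and the rpl2 intron (ATMG00560:I001) 2768 against 264 (density 709%). Among the 12 introns of genes with at least 100 counts, 12 had a density above 100%, with a median of 336%. For nuclear introns under the same minimum the median was 3.81%, and 0.947% of 103521 were above 100%. The nad1 intron ATMG00516:I001 holds the whole matR gene, so MATR reads can count in it. Near-identical chromosome 2 copies exist for 12 of the 16 matched introns, though not for those of rps3 and cox2.

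Tested one by one, introns showed few differences. The relative intron signal, which takes the count of the host gene as an offset, could be tested only for the rps3 intron, since other hosts fell under 10 counts in some library. It was -0.57 on the log2 scale in lsm4 against WT Col (adjusted p = 0.12, edgeR quasi-likelihood test), where 14.4% of all introns were called. It was -0.51 in WT C24 against WT Col (adjusted p = 0.41), where 6.39% were called, and none was testable in lsm5. Without WT Col replicate 1, the shallowest library, 7 introns could be tested in lsm4 and 2 were called, the rps3 intron not among them. The share of all introns called in that smaller fit is not given here, so these 2 calls are not read as a result. Plain intron counts were therefore tested as well, a choice made after seeing the data. In lsm5, 15 introns were tested and 0 were called by edgeR, with 2 at an unadjusted p under 0.05. Of all introns in that comparison 1.61% were called. Of the 15, 12 lay lower in lsm5 and 3 higher, with a median log2 fold change of -0.19, beside 0.23 over all introns tested. In lsm4, 1 of 18 tested was called: the nad5 intron ATMG00060:I001 fell, with 0.742 ± 0.0392 CPM in lsm4 and 1.62 ± 0.352 CPM in WT Col (SD, n = 3 each, log2 fold change -1.24 ± 0.42 SE, adjusted p = 0.028), where 30.8% of all introns were called. Of the 6 libraries, it kept its call only without WT Col replicate 1, where 4 introns were called in all; without WT Col replicate 2 or lsm4 replicate 2 the only call was the nad1 intron ATMG01120:I001, and without each of the others there was none. In WT C24 against WT Col, 2 of 17 were called, both lower, where 23.6% of all introns were: the nad7 intron ATMG00510:I002 (log2 fold change -1.39 ± 0.46 SE, adjusted p = 0.029) and the nad5 intron ATMG00513:I001 (-1.44 ± 0.53 SE, adjusted p = 0.0499). There were 5 calls without WT Col replicate 1, only the nad7 intron without WT Col replicate 3, and 0 without WT Col replicate 2, WT C24 replicate 1 or WT C24 replicate 3. For the difference between the lsm5 and lsm4 effects, 0 of 18 introns were called by edgeR and 3 had an unadjusted p under 0.05, with 1.28% of all introns called.

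**Figure D2:**
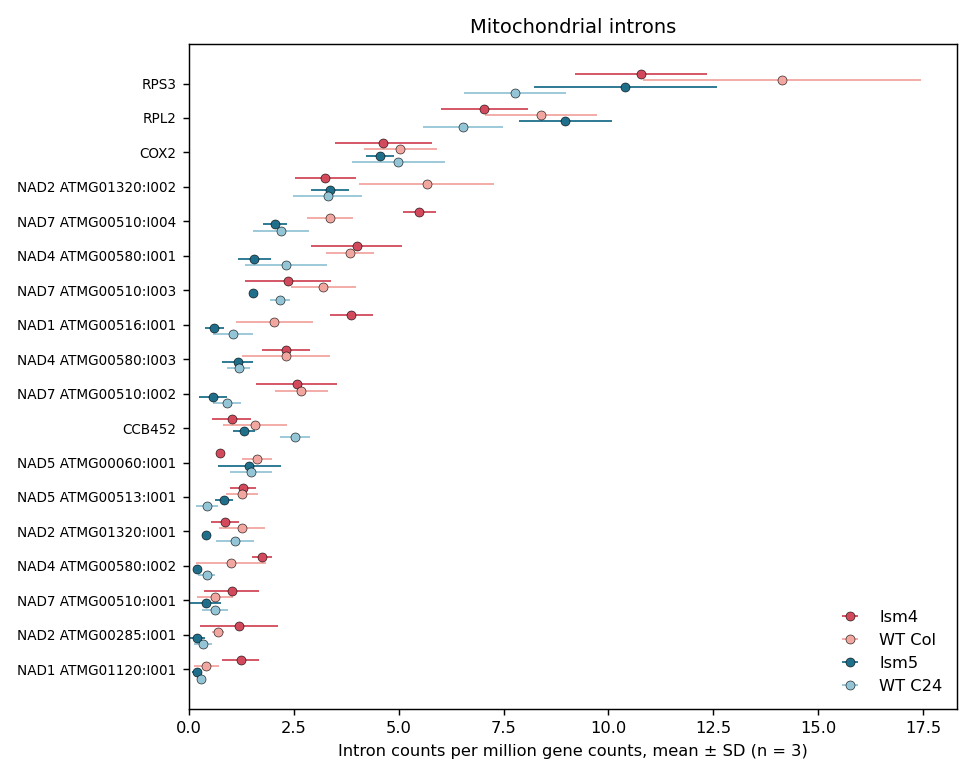
Level of each of the 18 mitochondrial introns in lsm4, WT Col, lsm5 and WT C24, in CPM (scaled to the gene counts of the library), as mean with SD over 3 libraries. The rps3 intron has the highest mean in each of the 4 groups.

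Individual genes were then tested over all genes with the edgeR quasi-likelihood test, at an adjusted p under 0.05. In lsm5 against WT C24, 20 members passed the filter on low counts and 4 were called, all lower; in this comparison 2.45% of all genes tested were called, and 0.938% were called lower. The groups did not overlap for 13 members, lower in lsm5, against 7.34% of all genes tested. A member with few counts could pass the filter through its higher group alone, here WT C24. The direction and the separation among the members kept are therefore partly set by the filter, and the same holds in the other comparisons. Over all 146 members, with no filter, the mean CPM was lower in lsm5 for 86, higher for 15 and 0 in both groups for 45. The 4 called members came from 4 functional classes.

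COX3 (ATMG00730), a subunit of cytochrome c oxidase, read 0.412, 0.517 and 0.546 CPM in lsm5, against 2.06, 1.59 and 2.12 CPM in WT C24. All lsm5 libraries lay far below all WT C24 libraries, and COX3 fell 4.03-fold (log2 fold change -2.01 ± 0.35 SE, adjusted p = 0.026). CCB452 (ATMG00180), the ccmFC gene of cytochrome c maturation, read 0.190, 0.230 and 0.353 CPM in lsm5, against 1.53, 0.995 and 1.06 CPM in WT C24, again with the groups apart (-2.26 ± 0.43 SE, adjusted p = 0.035). The reference sequences of COX3 and CCB452 each have an identical chromosome 2 copy, but the nuclear genes annotated there did not have the same counts. AT2G07723, over the CCB452 copy, had 979 counts to the 277 of CCB452 and a log2 fold change of -0.92 ± 0.32 SE in lsm5 (adjusted p = 0.19), short of the test. The 2 are unlike features: AT2G07723 spans 2318 bases, whereas CCB452 was counted on 1359 exonic bases. The 960-base CCB452 intron was counted apart, with 600 counts and a log2 fold change of -0.98 ± 0.40 SE in lsm5. The counts of AT2G07723 and CCB452 therefore cannot be compared directly. AT2G07687, over the COX3 copy, had 182 counts to the 331 of COX3 and did not reach the filter in this comparison. COX3 spans 1447 bases in the files and 798 in the reference.

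RRN5 (ATMG01380), the 5S rRNA of the mitochondrial ribosome, read 0.127, 0.287 and 0.321 CPM in lsm5, against 1.00, 1.32 and 1.14 CPM in WT C24. It fell 4.96-fold (-2.31 ± 0.47 SE, adjusted p = 0.043) and has no near-identical nuclear copy. TRNS.4 (ATMG00780), a serine tRNA, read 0.127, 0.115 and 0.128 CPM in lsm5, against 1.24, 0.753 and 0.431 CPM in WT C24, with the groups apart (-2.71 ± 0.58 SE, adjusted p = 0.0492). Its sequence is the same over its 88 bases as that of TRNS.2 (ATMG00330), with 0 mismatches. TRNS.2 had a log2 fold change of -2.44 ± 0.54 SE (adjusted p = 0.057). Reads that lie wholly within the 88 bases cannot be told apart between the pair. The counts over all libraries still differed, with 133 on TRNS.2 and 115 on TRNS.4, and how reads were divided is not known. AT2G07774, the nuclear gene over the chromosome 2 copies of both, also fell in lsm5 (-2.88 ± 0.41 SE, adjusted p = 0.015). The calls of RRN5 and TRNS.4 rest on few reads, with 195 and 115 counts over all libraries. Their lsm5 values stand near the floor, and fragments are fewer still if both mates were counted. Both short genes are shown from the reference, RRN5 at MT:126001-126118 and TRNS.4 at MT:321858-321945, both on the minus strand. Capitals mark the longest run of A, of 4 bases in RRN5 and 3 in TRNS.4, since the libraries were selected for A tails.
RRN5: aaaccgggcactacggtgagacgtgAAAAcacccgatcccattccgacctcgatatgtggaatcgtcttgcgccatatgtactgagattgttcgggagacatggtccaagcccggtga
TRNS.4: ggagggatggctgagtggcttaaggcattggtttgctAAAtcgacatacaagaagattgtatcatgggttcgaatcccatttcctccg

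Leaving out 1 library ended most of these calls, though not without lsm5 replicate 3. Without WT C24 replicate 1, WT C24 replicate 3, lsm5 replicate 1 or lsm5 replicate 2 no member was called, and without WT C24 replicate 2 only COX3 was. Without lsm5 replicate 3 there were 5 calls, the 4 named plus TRNS.2. The log2 fold changes moved little over these 6 fits, between -2.13 and -1.94 for COX3, -2.42 and -2.11 for CCB452, -2.53 and -2.04 for RRN5 and -3.02 and -2.38 for TRNS.4. DESeq2 called 10 members, all lower, the same 4 among them. In the authors' deposited table of genes lower in lsm5, 12 of 797 genes were mitochondrial, and 0 of 1048 in their table of genes higher in lsm5.

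Among the other rRNA genes in lsm5, RRN26 read 41.7, 117 and 27.7 CPM, against 244, 129 and 187 CPM in WT C24 (log2 fold change -1.55 ± 0.53 SE, adjusted p = 0.17). RRN18 read 51.0, 114 and 46.6 CPM in lsm5, against 197, 87.3 and 149 CPM in WT C24, with overlap (-1.02 ± 0.42 SE, adjusted p = 0.25). By edgeR neither passed the test. The groups did not overlap for RRN26, and it was among the 10 members that DESeq2 called. ATP1 had 0.571, 2.07 and 2.34 CPM in lsm5, against 3.82, 2.12 and 2.82 CPM in WT C24 (adjusted p = 0.37). COX1 (ATMG01360) averaged 0.266 CPM in lsm5 and 0.622 CPM in WT C24, and the rps3 gene ATMG00090 averaged 0.580 CPM in lsm5 and 1.42 CPM in WT C24; neither passed. No complex I gene reached the filter in this comparison.

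**Figure D3:**
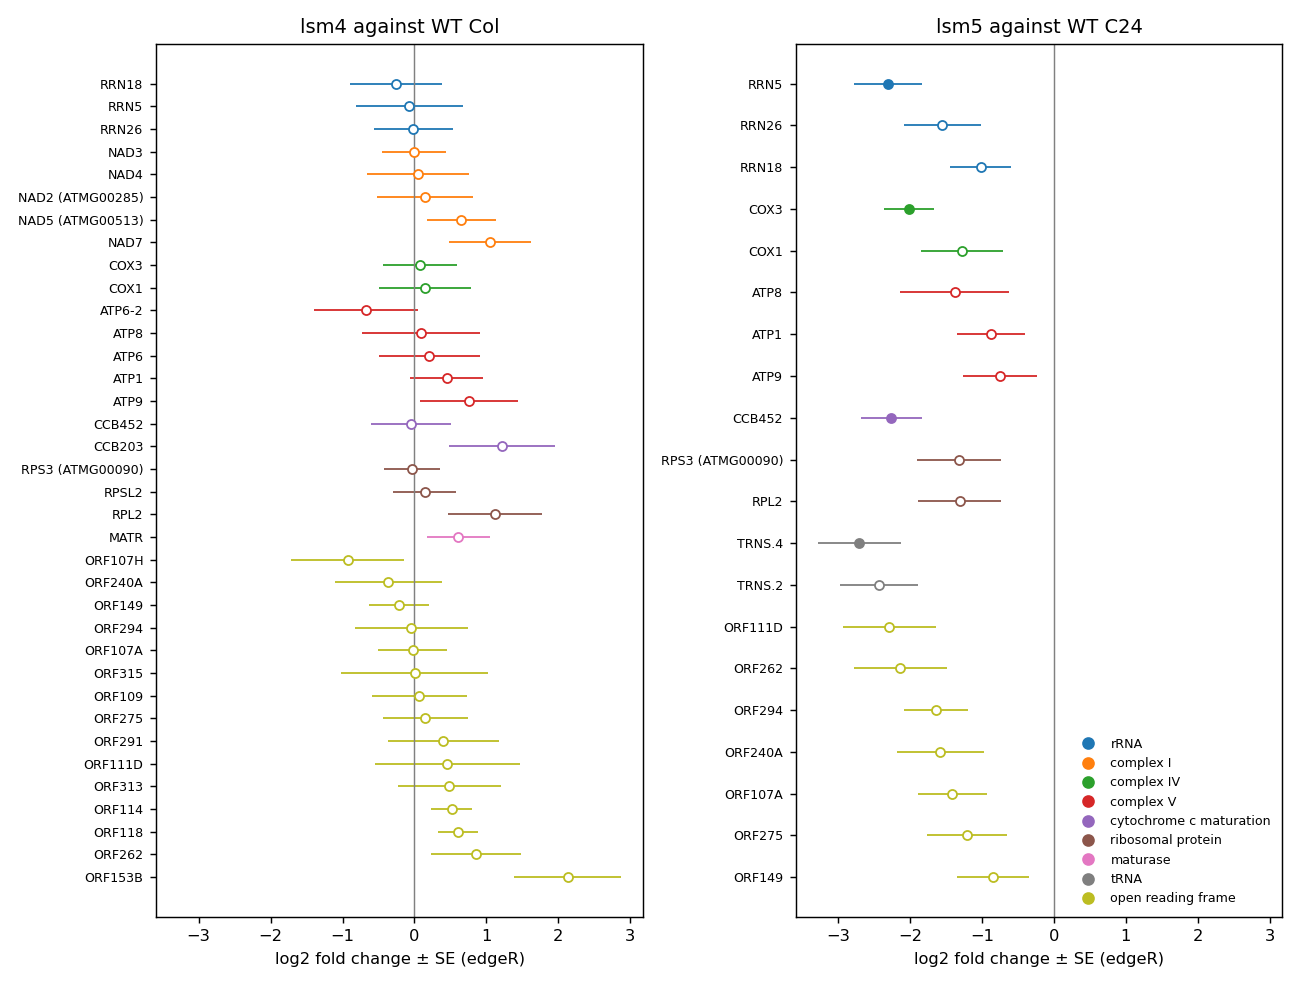
Log2 fold change with SE of each mitochondrial gene that passed the low-count filter, lsm4 against WT Col on the left and lsm5 against WT C24 on the right, coloured by class; filled points passed an adjusted p under 0.05. In lsm4 none of 36 passed, and in lsm5 the 4 filled points are RRN5, COX3, CCB452 and TRNS.4.

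In lsm4 against WT Col, 36 members passed the filter and 0 were called by edgeR or by DESeq2, where edgeR called 21.4% of all genes tested. ORF153B (ATMG01020), an open reading frame, was the only one at an unadjusted p under 0.05. It read 0.603, 0.318 and 0.491 CPM in lsm4, against 0, 0.153 and 0.0382 CPM in WT Col (log2 fold change 2.13 ± 0.74 SE, adjusted p = 0.072). The groups did not overlap for 7 members, all higher in lsm4, against 25.8% of all genes tested; for lower values there were 0, against 15.3%. Among these 7, MATR (ATMG00520), whose protein acts in group II intron splicing, averaged 2.30 CPM in lsm4 and 1.23 CPM in WT Col. NAD7 (ATMG00510), a complex I subunit, averaged 1.38 CPM in lsm4 and 0.495 CPM in WT Col, and RPL2 (ATMG00560) of the large ribosomal subunit 1.27 CPM in lsm4 and 0.421 CPM in WT Col; none of these passed the test. The 7 are all among the members with a near-identical chromosome 2 copy, but so were 24 of the 36 tested. They are not separate either, since ORF153B, ORF118 and ORF114 among them are neighbours. In the authors' deposited table of genes higher in lsm4, 2 of 3254 genes were mitochondrial, ORF153B (log2 fold change 2.14) and NAD5 (ATMG00060), and 0 of 3324 in their table of lower genes.

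The mutant effects were compared directly as the lsm5 effect minus the lsm4 effect over all 12 libraries. Of 41 members tested, 3 were called, all lower, where 10.5% of all genes tested were called and 5.41% called lower. COX3 had a difference of -2.12 ± 0.59 SE (adjusted p = 0.039): it was lower in lsm5, while lsm4 libraries held 0.833, 0.667 and 0.722 CPM and the WT Col libraries 0.213, 0.747 and 0.726 CPM. The other 2 were ORF118 (ATMG01010, adjusted p = 0.042) and ORF114 (ATMG01000, adjusted p = 0.043), which rest on few counts in the soil-grown groups. The calls ranged between 0 and 4 when single libraries were left out: none was called without WT Col replicate 3, lsm4 replicate 1, lsm4 replicate 3, WT C24 replicate 3 or lsm5 replicate 3. Without WT Col replicate 1 or lsm4 replicate 2 only COX3 was called. Without lsm5 replicate 1 the only call was ORF262, and without lsm5 replicate 2 an entry of NAD5, neither of them among the 3. Of the 3, only COX3 kept its call without WT Col replicate 2, and only ORF118 and ORF114 without WT C24 replicate 1 or WT C24 replicate 2. DESeq2 called 7, the same 3 among them.

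ORF118 and ORF114 belong to a stretch of 5 neighbouring genes on 1 strand: ORF153B, ORF118, ORF114, NAD3 (ATMG00990), a complex I subunit, and RPSL2 (ATMG00980), the rps12 gene of the small ribosomal subunit. All but ORF153B were called lower in WT C24 than in WT Col. ORF153B did not reach the filter there, with 0, 0 and 0.157 CPM in WT C24, against 0, 0.153 and 0.0382 CPM in WT Col, and the groups overlapped. In the reference ORF118 and ORF114 share 203 bases, and ORF114 and nad3 share 41 bases at MT:288044-288084 on the plus strand. The shared bases are shown because a read wholly within them cannot be assigned to 1 of the genes by position. How such reads were counted is not known. Capitals mark the nad3 start codon and the ORF114 stop codon.
ORF114 and NAD3 overlap: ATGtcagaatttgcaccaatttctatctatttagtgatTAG

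In WT C24 against WT Col, 8 of 28 members tested were called, 5 lower and 3 higher, where 41.1% of all genes tested were called, 21.6% lower and 19.5% higher. NAD3 held 0, 0 and 2 counts in WT C24, against 13, 44 and 14 counts in WT Col, a ratio of 32.2-fold lower (95% interval 8.60 to 271, counting error only). ORF118 read 0, 0.0807 and 0.588 CPM in WT C24, against 2.66, 2.57 and 2.64 CPM in WT Col (log2 fold change -3.41 ± 0.73 SE, adjusted p = 0.0034). ORF114 read 0, 0.0538 and 0.666 CPM in WT C24, against 2.55, 2.59 and 2.56 CPM in WT Col (-3.30 ± 0.78 SE, adjusted p = 0.0059). RPSL2 fell too (-2.91 ± 0.71 SE, adjusted p = 0.0072), and so did MATR (-2.23 ± 0.60 SE, adjusted p = 0.012); the MATR call was lost without WT Col replicate 2.

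Higher in WT C24 were COX3 (1.67 ± 0.47 SE, adjusted p = 0.015), RRN5 (1.72 ± 0.52 SE, adjusted p = 0.022) and ORF240A (ATMG00690, 1.36 ± 0.47 SE, adjusted p = 0.038). The RRN5 call was lost without WT Col replicate 3, WT C24 replicate 2 or WT C24 replicate 3, and that of ORF240A without any library but WT Col replicate 1. COX3 and RRN5 were also called in lsm5 against WT C24; both comparisons use the same 3 WT C24 libraries, so these calls are not independent.

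In lsm5 plants the stretch held few counts. ORF153B had 4 counts in the lsm5 group and 4 in WT C24. ORF114 had 0 counts in each lsm5 library, against 0, 2 and 17 in WT C24, at least 7.75-fold lower if the lsm5 group is set to 3 counts in all. ORF118 had 1 count in the lsm5 group and 18 in WT C24, a ratio of 22.0 (95% interval 3.48 to 917), and RPSL2 had 0 against 8, at least 3.26-fold lower. Most WT C24 counts of ORF114 and ORF118 came from replicate 3; without it WT C24 held 2 counts on ORF114 and 3 on ORF118. In lsm4, ORF118 read 4.91, 3.94 and 4.42 CPM and ORF114 4.40, 3.65 and 4.24 CPM, above each WT Col library, without passing the test (adjusted p = 0.16 and 0.23).

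All 5 genes have identical copies on chromosome 2 of the Columbia reference. AT2G07675, over the rps12 copy, had 202 counts to the 204 of RPSL2, and AT2G07751, over the nad3 copy, had 164 to the 170 of NAD3, nearly the same number in both pairs. AT2G07674, which spans the copies of the 3 reading frames, had 803 counts, against 660 on ORF114, 695 on ORF118 and 65 on ORF153B. Between the wild types the log2 fold changes of these nuclear genes were -3.11 for AT2G07675, -4.75 for AT2G07751 and -3.25 for AT2G07674. Whether these reads came from the organelle or from chromosome 2 cannot be told apart.

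**Figure D4:**
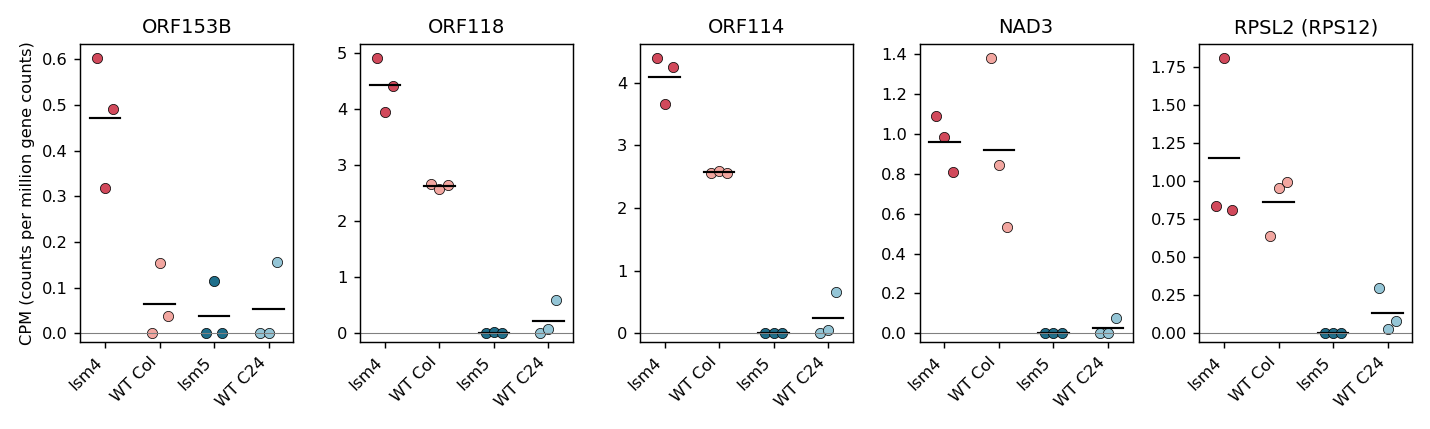
CPM of the 5 neighbouring genes ORF153B, ORF118, ORF114, NAD3 and RPSL2 in each library of lsm4, WT Col, lsm5 and WT C24; points are libraries and lines are means. ORF118 and ORF114 lie between 3.65 and 4.91 CPM in lsm4 and between 2.55 and 2.66 CPM in WT Col, and at most at 0.666 CPM in lsm5 and WT C24.

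The mitochondrial share was set beside that of the 133 chloroplast-encoded genes, whose transcripts are likewise poorly caught by polyA selection. Chloroplast genes took 0.234%, 0.781% and 0.140% of gene counts in lsm5, against 2.88%, 1.03% and 2.23% in WT C24, lower in each lsm5 library than in any WT C24 library (exact permutation p = 0.1). They took 2.67%, 0.539% and 0.874% in lsm4, against 0.616%, 4.57% and 1.30% in WT Col, with overlap. Over the 12 libraries the log2 shares of chloroplast genes and mitochondrial rRNA genes moved together (Pearson r = 0.92, permutation p = 2e-05; Spearman rho = 0.90, permutation p = 0.00018; Benjamini-Hochberg adjusted 0.00012 and 0.00054 over both measures of 3 relations). Without the 2 libraries farthest from the median chloroplast share, r was 0.85. For the deviations from the group means r was 0.99, so the relation was also present within groups, though this r was not tested. The permutations, here and below, shuffled all 12 libraries without regard to group. Their p-values therefore also take in differences between the groups and treat the libraries as exchangeable, which the design does not give.

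The other mitochondrial genes followed the chloroplast share less closely in value (r = 0.82, permutation p = 0.0012, adjusted 0.0025; rho = 0.68, permutation p = 0.018, adjusted 0.027; r = 0.70 without the 2 farthest and 0.96 for deviations from group means). The introns gave r = 0.56 (permutation p = 0.057, adjusted 0.068) and rho = 0.47 (permutation p = 0.13, adjusted 0.13), with r = 0.36 without the 2 farthest and 0.89 for deviations from group means. The chloroplast, rRNA and intron shares have the same total as denominator, and the share of the other genes has that total without the mitochondrial rRNA genes. The other genes include ORF107A, which overlaps rrn26 in the reference. The part of organelle RNA capture in the lsm5 difference was not tested.

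**Figure D5:**
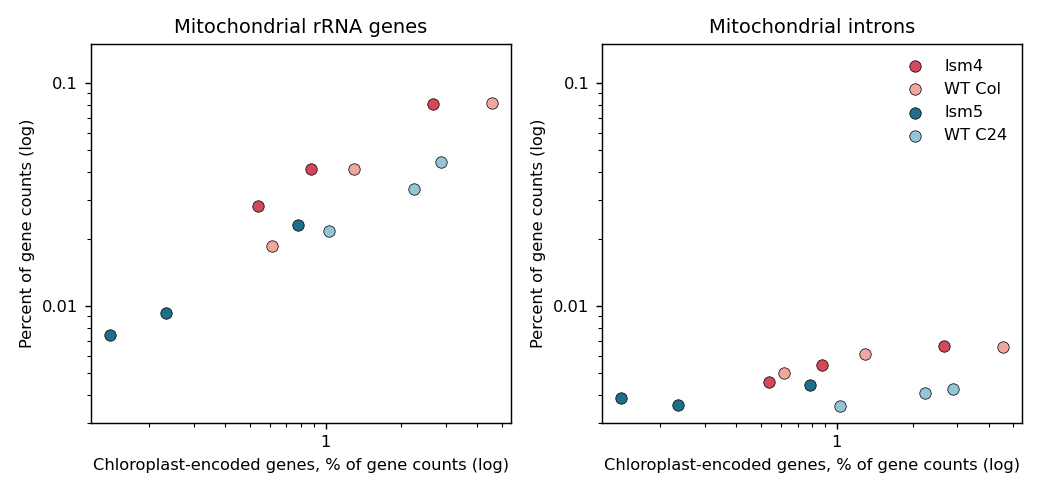
Share of gene counts on mitochondrial rRNA genes (left) and number of mitochondrial intron counts as percent of gene counts (right) against the share on chloroplast-encoded genes, log axes, for each library of lsm4, WT Col, lsm5 and WT C24. The rRNA share ranges over 10.9-fold along the chloroplast share, the intron share over 1.86-fold.

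Nuclear genes for mitochondrial functions, in lists that were chosen with earlier results known, are given for context. Of the stress response genes, which rise when mitochondrial function is impaired, 4 of 10 tested rose in lsm5 and none fell, where 2.45% of all genes tested were called and 1.51% called higher. AOX1A, the main alternative oxidase, averaged 264 CPM in lsm5 and 53.9 CPM in WT C24 (log2 fold change 2.23 ± 0.20 SE, adjusted p = 0.0037), and AOX1D, UPOX and ANAC013 rose by 2.12, 2.11 and 1.90 on the log2 scale. In lsm4, 5 of 9 tested rose and none fell, where 21.4% of all genes tested were called and 10.7% called higher: AOX1A averaged 116 CPM in lsm4 and 35.4 CPM in WT Col (1.54 ± 0.20 SE, adjusted p = 0.0011), and UPOX, OM66 and ANAC013 rose by 2.29, 2.23 and 1.52 on the log2 scale. AOX1C, another alternative oxidase, averaged 2.94 CPM in lsm4 and 0.204 CPM in WT Col. The list's median log2 fold change was 1.83 in lsm5 and 1.52 in lsm4, beside 0.0071 and 0.020 over all genes tested.

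Of 5 genes for mitochondrial RNA polymerases and RNA decay, 1 rose in each mutant and none fell, which in lsm4 is near the 21.4% called among all genes tested, against 2.45% in lsm5. The gene that rose in lsm5 was mtPNP, the polynucleotide phosphorylase that degrades tailed RNA in plant mitochondria (10.9 CPM in lsm5 and 3.79 CPM in WT C24, log2 fold change 1.42 ± 0.26 SE, adjusted p = 0.034). In lsm4 it was RPOTMP, a polymerase, that rose (0.91 ± 0.22 SE, adjusted p = 0.019). Of 12 factors for group II intron splicing, the RNA helicase PMH1 rose in lsm5 (1.24 ± 0.18 SE, adjusted p = 0.016) and 0 were called in lsm4 by edgeR, with 4 at an unadjusted p under 0.05. Neither mutant changed any of 27 nuclear subunits of the respiratory complexes by the edgeR test (4 in lsm5 and 3 in lsm4 at an unadjusted p under 0.05) or of 6 genes for porins and the TCA cycle (1 in lsm5 and 2 in lsm4 at an unadjusted p under 0.05). For PMH1 the lsm5 and lsm4 effects differed by 1.07 (adjusted p = 0.016).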

How the data were processed

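Deposited were the authors' raw read counts for genes and for introns, in whole numbers, and their own tables of log2 fold changes and FDR-adjusted p-values. The TAIR10 build, edgeR 3.4.2, TopHat2 2.0.9 and R 3.0.2 are named in the submitters' processing notes. How strand and reads with several matches were handled in counting is not given in the sources used here. A count column carries the tag shared by both sequenced libraries of a replicate and was taken as 1 library, so n was 3 per group. Positions in bases in the deposited tables were used for lengths only. Not used were 12 further per-sample columns beside the intron counts, which matched gene counts where checked, and 1 nameless intron row of 11 counts.

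In R 4.3.3, the quasi-likelihood test of edgeR 4.0.16 was run on gene and intron counts, with TMM scaling, filterByExpr at a minimum count of 10 and Benjamini-Hochberg adjustment over all features. Only the samples of each comparison entered its fit; the difference of the mutant effects used all 12 libraries. The test was checked on simulated data. CPM values are scaled to the library's total gene counts, without TMM factors. Shares were compared on the log2 scale by exact permutation, and correlations used 100000 permutations of all libraries without regard to group. Alternatives were DESeq2 1.42.0, other scalings, no filter, a block and leaving out each library. Intervals and floors (3 counts, 95%) cover counting error only and treat reads of a pair as independent. No replicate pair agreed within sampling noise (chi-square over its degrees of freedom 16.0 to 148.5). Sequences are from RefSeq TAIR10.1; its mitochondrial sequence differs from the one in the files, so members were matched by name and nuclear copies found with blastn 2.17.0 (at least 98% identity, 90% cover).

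Genes named with values were those of known function, called reading frames and tRNAs, the most abundant of these, and tested introns; not every one is printed. The members and lists were chosen with earlier results of these data known.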

Additional observations from a re-analysis of the deposited data

Results flagged for a closer look

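For 3 genes the lsm5 effect and the lsm4 effect differed by the test of the difference itself (edgeR quasi-likelihood test over all 12 libraries). The log2 difference was -2.12 for COX3, -4.71 for ORF118 and -6.54 for ORF114. The sizes for ORF118 and ORF114 depend on the prior count, since the lsm5 group held 1 count on ORF118 and 0 on ORF114, and these genes share 203 bases and have identical copies on chromosome 2. Their causes were not tested.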

How the results depend on the processing

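The share of counts on mitochondrial genes reversed in lsm4 without lsm4 replicate 1 (log2 difference -0.155) and without WT Col replicate 1 (-0.289), within a range of -0.289 to 0.725, and in WT C24 without WT Col replicate 2 (0.170), within -0.844 to 0.170. The number of members called in lsm5 was 4 and became 10 with DESeq2 and 7 with the plant tag as a block, and 0 to 5 when single libraries were left out; for the difference of effects it was 3, 7 with DESeq2 and 0 to 4. With the plain intron counts the lsm4 call was lost with the replicate number as a block (0), and calls ranged from 0 to 4 in lsm4 and from 0 to 5 in WT C24 against WT Col when single libraries were left out. RLE scaling and scaling without organelle genes gave the same number of member calls as the main settings in all 4 comparisons, and no filter on low counts gave 3 in lsm5, 7 between the wild types and 2 for the difference of effects. The cause was not tested. Replicate numbers did not pair the samples throughout. Same-number correlations lay between -0.28 and 0.408 for lsm4 and WT Col and between -0.264 and 0.525 for lsm5 and WT C24. With the replicate number as a block, calls over all genes went from 486 to 1342 in lsm5. They went from 4458 to 3583 in lsm4 and from 8335 to 8673 between the wild types. Among the members this block gave 6 calls in lsm5 (RRN26 and TRNS.2 beside the 4), 0 in lsm4 and 8 between the wild types. RRN26 was also called with the plant tag as a block.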
